A study of Mus musculus with 6 samples.

Results

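The genes that copy DNA in S phase were followed here in the palate of Shox2 mutant mouse embryos. The list holds 39 genes chosen by symbol for a role in origin licensing, the replication fork, nucleotide supply or entry into S phase. All 39 were among the 23420 genes counted in each library and among the 16604 genes that had enough reads to be tested. RNA was sequenced from the tissue that would become the anterior hard palate, dissected from C57BL/6 embryos at E14.5, with 3 libraries of each genotype. The mutant was Shox2Cre/-;Nkx2.5F/F and the control was Shox2Cre/+;Nkx2.5F/F. Both genotypes therefore carried a Cre allele at Shox2, which drives recombination in cells that express Shox2, and a homozygous floxed Nkx2.5 gene, and they differed at the other Shox2 allele. The control libraries are titled WT but were not wild type. How many embryos went into each library is not stated, so each p-value reflects variation between libraries that may be technical.

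Replication starts at origins that are marked in G1 by the origin recognition complex, on which Cdc6 and Cdt1 load the ring-shaped MCM helicase. Cyclin-dependent and Dbf4-dependent kinases then recruit Cdc45 and GINS to switch the helicase on, and polymerases, their sliding clamp and a supply of deoxynucleotides follow. Transcription of most of these genes rises as cells leave G1 under the control of E2F factors, so in a tissue their summed transcripts are commonly read as a marker of cycling cells, and palatal mesenchyme is a growing tissue at this stage.

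Shox2 itself had 5.30, 4.12 and 3.13 CPM (the count scaled to library size and to the TMM factor of the library) in mutant replicates 1, 2 and 3, against 88.2, 68.2 and 81.7 CPM in control replicates 1, 2 and 3 (log2 fold change -4.24, SE 0.21, edgeR adjusted p = 0.000137). The label check therefore held in every library. Total counts were 52668242 to 53331397 in the mutants and 81950407 to 134813429 in the controls, so that every mutant library was shallower than every control. A principal component holding 78.4% of the variance separated the genotypes, and the next one, holding 8.4%, set mutant replicate 1 apart from the other mutants. In mutant replicate 1, 99.7% of counts from 5 to 50 were even numbers, against 63.6% to 73.0% in the other 5 libraries. Each member had between 424 and 36450 counts in every library. All 9 markers of palatal mesenchyme were detected in both genotypes, and Prrx1, the most abundant, had 983, 836 and 712 CPM in the mutants, against 1036, 1107 and 1039 CPM in the controls.

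DNA replication genes were lower in the mutant palate. Of the 39 members, 33 fell, none rose and 6 (Cdt1, Rfc5, Pole, Rrm1, Ccne2 and Ccnd1) did not pass the test (edgeR quasi-likelihood test, Benjamini-Hochberg adjusted p below 0.05 over all tested genes). DESeq2 called 34 members lower and limma-voom 32, and neither called any higher, nor was any higher in edgeR at an unadjusted p below 0.05. Among all tested genes 21.7% were called lower and 24.1% higher by the same test. Every member had a log2 fold change (mutant over control) below 0, from -1.24 for Rfc4 to -0.09 for Pole, with a median of -0.56 and quartiles of -0.68 and -0.46. The median over all tested genes was -0.004, with quartiles of -0.32 and 0.49. In 35 members all 3 mutant libraries lay below all 3 controls, as they did in 29.2% of all tested genes. In bulk tissue, fewer cycling cells and less of these RNAs per cell cannot be told apart.

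The falls were moderate in size. Among the 33 called members the mutant mean was between 42.4% and 83.7% of the control mean, and edgeR adjusted p lay between 0.00035 and 0.0489. Against a threshold of 1.2-fold in place of any change, 26 members were called lower by edgeR. Summed over the members, transcripts made up 2852, 2466 and 2712 CPM in mutant replicates 1, 2 and 3, against 4126, 3758 and 3732 CPM in the controls. The groups did not overlap in this sum, and the mutant mean was 69.1% of the control mean.

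**Figure D1:**
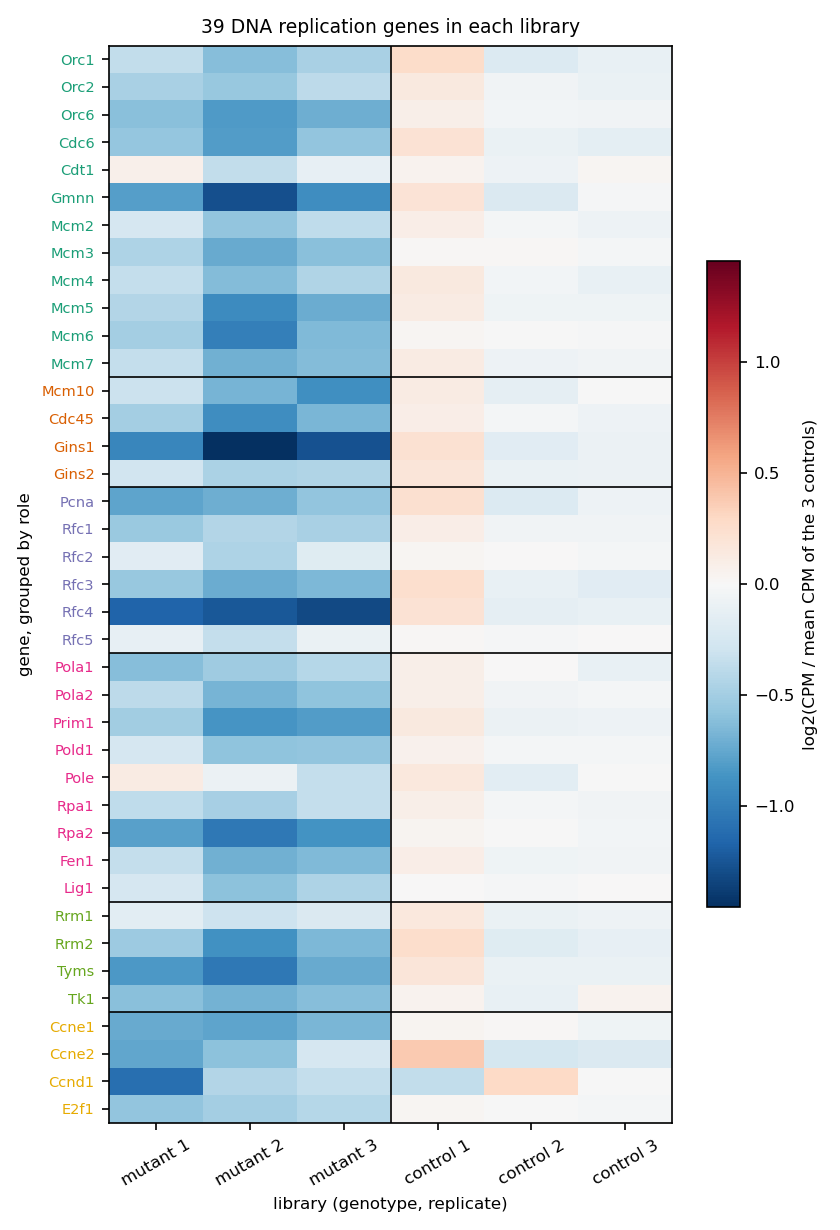
Each row is 1 of the 39 genes and each column 1 library, mutants left and controls right, with colour giving log2 of the library's CPM over the mean CPM of the 3 controls. Black lines separate the roles from licensing at the top to G1/S entry at the bottom. Mutant columns are blue in nearly every row, most deeply for Rfc4 and Gins1, and control replicate 1 is the reddest control column.

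Libraries of 1 genotype also differed among themselves. Control replicate 1 was the highest control in 36 of 39 members, and mutant replicate 2 was the lowest mutant in 30. Mutant replicate 1 was the highest mutant in 28. The coefficient of variation within a genotype had a median of 10.7% over the members in the mutants and 7.3% in the controls. With replicate 1 of both genotypes left out, 35 members were called lower and the median was -0.57.

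**Figure D2:**
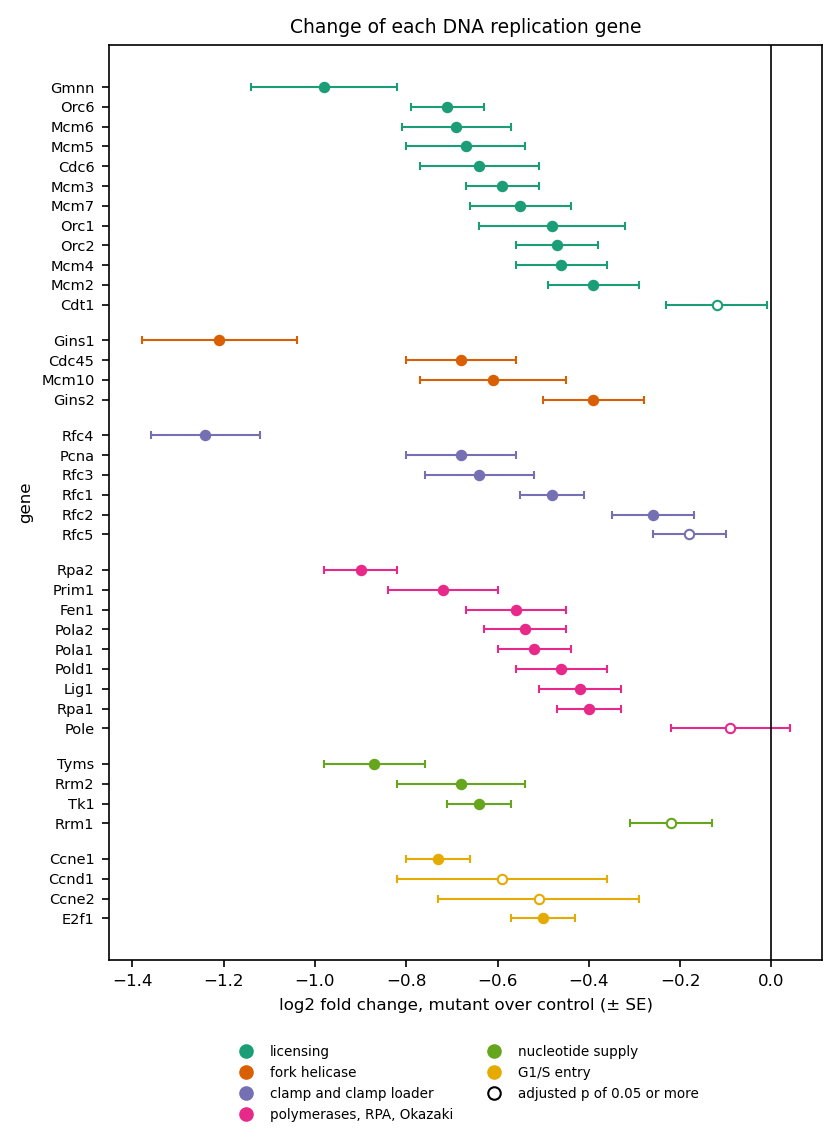
Points are log2 fold changes of mutant over control with their standard errors for the 39 genes, grouped and coloured by role, and open points have an adjusted p of 0.05 or more. All points lie left of 0, between -1.24 (Rfc4) and -0.09 (Pole), and 6 are open.

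Because the members moved in 1 direction, their promoters were read for letters bound by cell cycle factors. RefSeq windows on GRCm38.p6, from 250 bases before to 50 bases after a start site, were at hand for 31 of the 39 members; Gmnn, Mcm4, Gins1, Gins2, Rfc2, Pole, Ccne2 and Ccnd1 were not matched. E2F letters (TTTCCCGC, TTTCGCGC, TTTGCCGC or TTTGGCGC, on either strand, overlaps allowed) were in a window of 11 of these 31 members (35.5%), against 2.60% of all 27025 genes with a window and 4.18% of the 12020 tested ones. The CCAAT box (CCAAT, either strand) was in 19 of 31 (61.3%), against 41.96% of the tested genes, and the cell cycle homology letters TTTGAA were in 3 of 31 (9.7%), against 14.48%. A match is a description of the letters and not a site shown to be bound. The 11 members with E2F letters were Orc1, Cdc6, Cdt1, Mcm3, Mcm5, Mcm6, Mcm7, Rfc3, Pola1, Pold1 and Lig1, of which 10 fell, with a median log2 fold change of -0.55. Of the 20 without them 18 fell, with a median of -0.62. The difference between these medians was not tested. Every window of E2f1, a member without E2F letters, lies inside the gene as GENCODE places it. The same holds for Cdc6 and Mcm7, which have the letters. The bases before the outermost GENCODE start of these genes were therefore not read.

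The windows of 6 members are printed 5′ to 3′ on the gene's strand, with E2F letters of either strand in capitals. Mcm5, Mcm6, Mcm7 and Rfc3 show the letters in members that fell, Cdt1 shows them in a member that did not pass the test, and Rfc4 had the largest fall and holds none.
Mcm5 (chr8:75109259-75109558, plus strand): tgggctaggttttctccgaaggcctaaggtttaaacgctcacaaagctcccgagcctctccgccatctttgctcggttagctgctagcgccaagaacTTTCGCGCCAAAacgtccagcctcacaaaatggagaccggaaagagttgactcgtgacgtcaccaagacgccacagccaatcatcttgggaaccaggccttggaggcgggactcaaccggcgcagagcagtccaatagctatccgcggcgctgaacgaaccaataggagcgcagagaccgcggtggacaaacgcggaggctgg
Mcm6 (chr1:128359656-128359955, minus strand): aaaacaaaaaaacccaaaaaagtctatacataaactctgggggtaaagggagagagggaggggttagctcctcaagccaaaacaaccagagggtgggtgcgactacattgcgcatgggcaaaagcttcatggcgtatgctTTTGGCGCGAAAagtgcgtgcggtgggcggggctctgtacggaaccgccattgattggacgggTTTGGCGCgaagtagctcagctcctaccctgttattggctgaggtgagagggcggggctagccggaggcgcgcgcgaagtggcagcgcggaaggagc
Mcm7 (chr5:138171834-138172133, minus strand): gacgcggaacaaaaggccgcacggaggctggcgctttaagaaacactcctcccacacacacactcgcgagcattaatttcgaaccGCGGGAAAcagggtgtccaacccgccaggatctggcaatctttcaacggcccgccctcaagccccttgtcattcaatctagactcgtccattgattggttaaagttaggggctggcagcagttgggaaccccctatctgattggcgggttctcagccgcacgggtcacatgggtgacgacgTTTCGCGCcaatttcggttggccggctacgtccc
Rfc3 (chr5:151651159-151651458, minus strand): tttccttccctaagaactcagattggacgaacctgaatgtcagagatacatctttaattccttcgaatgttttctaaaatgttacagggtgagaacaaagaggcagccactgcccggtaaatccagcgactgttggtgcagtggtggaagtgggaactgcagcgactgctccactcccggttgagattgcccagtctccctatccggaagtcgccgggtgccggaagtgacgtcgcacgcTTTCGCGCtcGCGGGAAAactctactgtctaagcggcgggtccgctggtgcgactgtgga
Cdt1 (chr8:122567765-122568064, plus strand): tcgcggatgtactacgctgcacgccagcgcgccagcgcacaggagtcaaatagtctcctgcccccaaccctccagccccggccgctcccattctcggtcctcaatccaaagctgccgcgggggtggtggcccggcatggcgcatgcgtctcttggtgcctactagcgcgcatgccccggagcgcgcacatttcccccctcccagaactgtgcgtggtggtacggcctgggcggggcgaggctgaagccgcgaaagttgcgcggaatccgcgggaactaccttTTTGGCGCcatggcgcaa
Rfc4 (chr16:23127681-23127980, minus strand): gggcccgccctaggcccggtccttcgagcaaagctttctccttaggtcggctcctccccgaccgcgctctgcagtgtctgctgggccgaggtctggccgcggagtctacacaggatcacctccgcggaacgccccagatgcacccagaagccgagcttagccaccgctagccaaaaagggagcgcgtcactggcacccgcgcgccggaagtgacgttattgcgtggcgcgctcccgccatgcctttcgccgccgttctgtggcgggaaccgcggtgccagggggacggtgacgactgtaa
In Mcm5 and in the upstream site of Mcm6 the capitals are 2 overlapping matches, 1 on each strand. In Rfc3 the 2 matches, also on opposite strands, lie on either side of the start site.

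Origin licensing genes fell in 11 of 12 cases. Orc6, the smallest subunit of the origin recognition complex, had 39.7, 34.0 and 36.9 CPM in the mutants, against 64.2, 58.8 and 58.0 CPM in the controls (log2 fold change -0.71, SE 0.08, edgeR adjusted p = 0.000784). Orc2, another subunit, stood at 40.3, 38.3 and 42.9 CPM in the mutants, against 61.6, 53.8 and 52.4 CPM in the controls (-0.47, SE 0.09). The ATPase subunit Orc1, the lowest licensing gene per kb of exon, had 10.2, 8.49 and 9.38 CPM in the mutants, against 15.7, 11.3 and 12.1 CPM in the controls. Its call was the weakest of the 33 (log2 fold change -0.48, SE 0.16, edgeR adjusted p = 0.0489), and with any 1 of the 6 libraries left out Orc1 was not called, at log2 fold changes of -0.57 to -0.33 and edgeR adjusted p of 0.0518 to 0.147. The other 3 subunits, chosen for mention after their values were seen, did not pass the test, with log2 fold changes of -0.09 for Orc3, -0.22 for Orc4 and -0.11 for Orc5. In the 19 alternatives tried each stayed below 0 and uncalled, Orc4 coming lowest at -0.30.

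The MCM2-7 helicase ring, which unwinds DNA at the fork, fell in all 6 subunits, and each stayed called with any 1 library left out. Mcm3 had 146, 119.5 and 129.9 CPM in the mutants, against 200.4, 200.2 and 194 CPM in the controls (log2 fold change -0.59, SE 0.08, edgeR adjusted p = 0.0015). Mcm6, whose promoter is printed above with 2 stretches of E2F letters, had 199, 139.7 and 179 CPM in the mutants, against 284, 279 and 275 CPM in the controls (-0.69, SE 0.12). Log2 fold changes of the ring lay between -0.39 for Mcm2 and -0.69 for Mcm6. In each of the 6 genes the groups did not overlap, and mutant replicate 2 was the lowest library. Scaled by exon length, the levels of the subunits stood at 21.0 (Mcm2) to 42.9 (Mcm4) CPM per kb in the mutants, against 27.5 (Mcm2) to 59.8 (Mcm6) CPM per kb in the controls. All 6 were among the 11 highest of the 39 genes in the controls on this scale.

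The loaders and the brake on licensing gave different calls. Cdc6, which helps to load the ring onto DNA, had 22.6, 18.9 and 22.4 CPM in the mutants, against 38.7, 31.3 and 30.2 CPM in the controls (log2 fold change -0.64, SE 0.13, edgeR adjusted p = 0.00601). Cdt1, its partner in loading, had 53.6, 39.7 and 47.2 CPM in the mutants, against 52.7, 48.5 and 51.9 CPM in the controls, and its groups overlapped (log2 fold change -0.12, SE 0.11, edgeR adjusted p = 0.4). Gmnn encodes geminin, which binds Cdt1 and prevents a repeat round of licensing, and it had 22.1, 15.8 and 20.5 CPM in the mutants, against 44.0, 33.2 and 37.9 CPM in the controls. This was the largest fall among licensing genes (log2 fold change -0.98, SE 0.16, edgeR adjusted p = 0.00243), to 50.7% of the control mean. Cdt1 and Gmnn are set side by side here as values, and the difference between their changes was not tested.

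Genes that turn the loaded ring into a moving helicase fell in 4 of 4 cases. Gins1, a subunit of the GINS complex, had 12.6, 8.91 and 10.1 CPM in the mutants, against 28.4, 21.8 and 23.1 CPM in the controls (log2 fold change -1.21, SE 0.17, edgeR adjusted p = 0.00151). The gene lies at chr2:150905400-150931280 on the plus strand (GRCm38), and its fall was the deepest but one of the list, to 43.2% of the control mean. Cdc45, which joins GINS and MCM at the fork, had 30.05, 22.5 and 26.7 CPM in the mutants, against 45.2, 41.4 and 40.1 CPM in the controls (log2 fold change -0.68, SE 0.12, edgeR adjusted p = 0.00357). Mcm10, needed to fire the assembled helicase, had 32.6, 25.1 and 21.6 CPM in the mutants, against 43.9, 36.7 and 40.3 CPM in the controls (log2 fold change -0.61, SE 0.16, edgeR adjusted p = 0.0163). Without mutant replicate 2 Mcm10 was not called (-0.57, edgeR adjusted p = 0.0604). Gins2 was nearest to no change in this group, with 30.3, 26.7 and 27.1 CPM in the mutants, against 41.3, 34.2 and 34.5 CPM in the controls (log2 fold change -0.39, SE 0.11, edgeR adjusted p = 0.0209), a call lost without mutant replicate 2 or 3. Its exons also overlap those of Gse1 on the opposite strand over 67.3% of their length, and since the strand setting of the counting is not given, reads of these genes cannot be told apart. The remaining subunits Gins3 and Gins4, from the wider list, fell as well (-0.61 and -0.53), so that all 4 subunits were called lower.

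The sliding clamp and its loader fell in 5 of 6 genes. Pcna, the ring that tethers polymerases and the highest of the 39 genes per kb of exon, had 107, 111 and 123 CPM in the mutants, against 214, 159.6 and 174 CPM in the controls (log2 fold change -0.68, SE 0.12, edgeR adjusted p = 0.00322). Rfc1, the large subunit of the clamp loader, had 115, 124 and 121 CPM in the mutants, against 178, 161 and 160.5 CPM in the controls (log2 fold change -0.48, SE 0.07, edgeR adjusted p = 0.0017). Rfc4, a small subunit, had 18.4, 17.6 and 16.6 CPM in the mutants, against 47.9, 37.8 and 38.6 CPM in the controls (log2 fold change -1.24, SE 0.12, edgeR adjusted p = 0.000397). The gene lies at chr16:23113943-23127737 on the minus strand (GRCm38). This was the deepest fall of the whole list, and the lowest control was above every mutant by more than the range within either genotype. On the scale of exon length Rfc4 stood at 11.5 CPM per kb in the mutants, against 27.0 CPM per kb in the controls, so its control level was close to that of Mcm2. Exons of Eif4a2 on the opposite strand cover 12.7% of the exon length of Rfc4.

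The other small loader subunits had log2 fold changes nearer to 0 than Rfc4. Rfc3 fell (log2 fold change -0.64, SE 0.12, edgeR adjusted p = 0.0053) with no overlap between the groups. Rfc2 had 83.9, 69.0 and 83.3 CPM in the mutants, against 95.8, 94.5 and 92.0 CPM in the controls (log2 fold change -0.26, SE 0.09, edgeR adjusted p = 0.045), a call that was lost with any 1 library left out other than mutant replicate 1, at edgeR adjusted p of 0.0605 to 0.103. Rfc5 had 44.8, 38.4 and 45.6 CPM in the mutants, against 49.3, 48.2 and 48.9 CPM in the controls, and did not pass although the groups did not overlap (log2 fold change -0.18, SE 0.08, edgeR adjusted p = 0.112). The difference between subunits was not tested.

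Polymerases, primase, the single-strand binding protein and the enzymes that join Okazaki fragments fell in 8 of 9 cases. Rpa2, a subunit of the protein that coats unwound DNA, had 44.0, 37.1 and 41.6 CPM in the mutants, against 78.3, 76.0 and 74.1 CPM in the controls (log2 fold change -0.90, SE 0.08, edgeR adjusted p = 0.00035), the smallest p of the 39. The groups were far apart, with the highest mutant library well under the lowest control. Rpa1, its largest partner, also fell (log2 fold change -0.40, SE 0.07, edgeR adjusted p = 0.0033), and Rpa3 of the wider list fell by 0.65 on the log2 scale. Prim1, the catalytic subunit of primase that lays down RNA primers, had 40.0, 31.4 and 32.3 CPM in the mutants, against 63.0, 53.7 and 54.1 CPM in the controls (log2 fold change -0.72, SE 0.12, edgeR adjusted p = 0.00262). Pola1, the catalytic subunit of polymerase alpha that extends those primers, had 50.8, 54.4 and 58.4 CPM in the mutants, against 82.8, 78.6 and 72.6 CPM in the controls (log2 fold change -0.52, SE 0.08, edgeR adjusted p = 0.00227). Pola2, its accessory subunit, was lower by a similar amount (-0.54, SE 0.09), and with Prim2 of the wider list (-0.36) all 4 subunits of the complex were called lower. Prim2 was not called without mutant replicate 2 or without control replicate 2.

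The catalytic subunits of the 2 main replicative polymerases gave different calls. Pold1, of polymerase delta, had 70.9, 55.6 and 56.2 CPM in the mutants, against 87.1, 82.05 and 82.1 CPM in the controls (log2 fold change -0.46, SE 0.10, edgeR adjusted p = 0.00963). Pole, of polymerase epsilon, had 64.8, 56.1 and 47.1 CPM in the mutants, against 66.3, 53.5 and 59.3 CPM in the controls, with groups that overlapped (log2 fold change -0.09, SE 0.13, edgeR adjusted p = 0.596). Pole was the member nearest to no change, and its value was 0.02 without mutant replicate 3. The smaller epsilon subunits of the wider list, chosen for mention after their values were seen, fell, at -0.53 for Pole2, -0.49 for Pole3 and -0.69 for Pole4. Of the delta subunits, Pold2 fell (-0.58), while Pold3 (-0.15) and Pold4 (0.17) did not pass. Fen1, the flap nuclease that trims Okazaki fragments, and Lig1, the ligase that seals them, both fell (-0.56, SE 0.11 and -0.42, SE 0.09). Most of the exon length of Fen1 (84.2%) is overlapped by opposite-strand exons, chiefly of Gm10143.

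Nucleotide supply genes fell in 3 of 4 cases. Tyms, thymidylate synthase, had 51.0, 44.1 and 54.7 CPM in the mutants, against 103, 85.2 and 85.1 CPM in the controls (log2 fold change -0.87, SE 0.11, edgeR adjusted p = 0.00106). Tk1, the thymidine kinase of S phase, had 50.1, 47.3 and 49.8 CPM in the mutants, against 79.1, 70.8 and 79.1 CPM in the controls (log2 fold change -0.64, SE 0.07, edgeR adjusted p = 0.00063). Tyms serves the synthesis and Tk1 the salvage of thymidine nucleotides, and in both the gap between the groups was wider than the range within either genotype. Rrm2, the small subunit of ribonucleotide reductase, had 94.6, 74.0 and 87.3 CPM in the mutants, against 164, 121 and 126 CPM in the controls (log2 fold change -0.68, SE 0.14, edgeR adjusted p = 0.00653). The large subunit Rrm1 had 232, 209 and 223 CPM in the mutants, against 288, 242 and 247 CPM in the controls, and did not pass (log2 fold change -0.22, SE 0.09, edgeR adjusted p = 0.0701). Its groups did not overlap, and Rrm1 was called lower in 4 of 19 alternatives. These were the fit without replicate 1 of both genotypes (-0.19, edgeR adjusted p = 0.0313), both corrections for GC content and length (-0.24, edgeR adjusted p = 0.0428 and 0.0464) and the fit with the mean level of Y-linked genes as a covariate (-0.36, edgeR adjusted p = 0.046).

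Among the 4 genes of entry into S phase, 2 fell and 2 did not pass. Ccne1, cyclin E1, which drives the step from G1 into S, had 33.9, 33.3 and 35.6 CPM in the mutants, against 58.1, 57.5 and 54.4 CPM in the controls (log2 fold change -0.73, SE 0.07, edgeR adjusted p = 0.000403). E2f1, an activating factor of the replication genes, had 37.1, 39.5 and 41.4 CPM in the mutants, against 56.8, 55.1 and 54.5 CPM in the controls (log2 fold change -0.50, SE 0.07, edgeR adjusted p = 0.00158). Both had tight groups that lay well apart. Ccnd1, cyclin D1, which links growth signals to the cycle, had 79.5, 126 and 134 CPM in the mutants, against 133, 208 and 169 CPM in the controls (log2 fold change -0.59, SE 0.23, edgeR adjusted p = 0.0683). Its mutant replicates 2 and 3 lay close to control replicate 1, and its value depended on single libraries. Ccnd1 was called lower without control replicate 1 (-0.75, edgeR adjusted p = 0.0318), without replicate 1 of both genotypes (-0.55, edgeR adjusted p = 0.00412) and by DESeq2 (-0.59, adjusted p = 0.019). It was at -0.39 without mutant replicate 1 and at -0.20 with the Y-linked covariate, and was called in neither (edgeR adjusted p = 0.129 and 0.622). Ccne2, cyclin E2, the least abundant of all 39 genes per kb of exon, had 7.70, 8.64 and 11.04 CPM in the mutants, against 16.9, 10.9 and 11.3 CPM in the controls (log2 fold change -0.51, SE 0.22, edgeR adjusted p = 0.0968). Without control replicate 1, its highest library, Ccne2 was at -0.29, and without replicate 1 of both genotypes at -0.18. With the Y-linked covariate it was at -0.85 and was called lower (edgeR adjusted p = 0.0489). In Ccnd1 mutant replicate 1 was the lowest library of all 6, whereas in most other members it was the highest mutant.

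**Figure D3:**
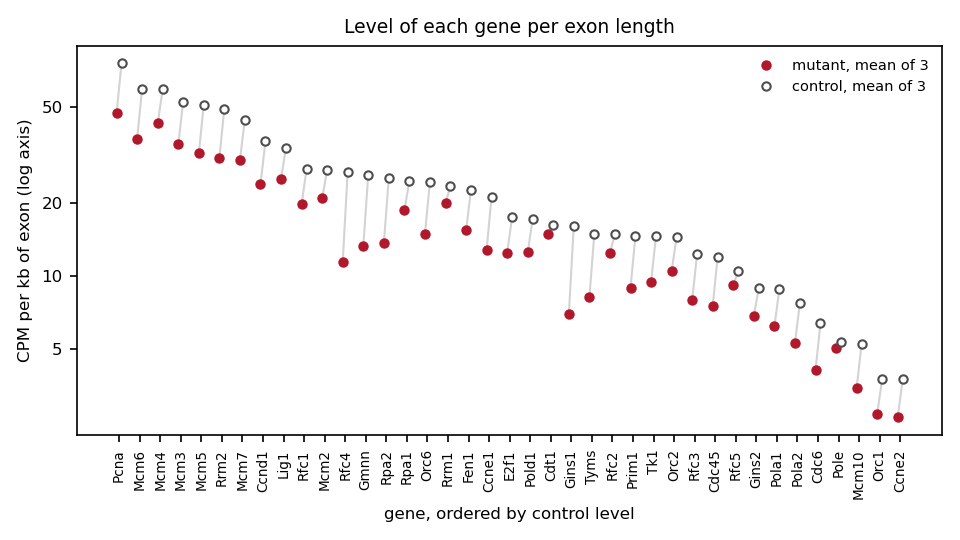
The level of each of the 39 genes is shown as mean CPM per kb of exon on a log axis, mutant (filled) left of control (open) and joined by a line, in the order of the control level. Pcna is highest, at 47.4 CPM per kb in the mutants and 76.2 in the controls, Ccne2 and Orc1 are lowest, and the lines are longest for Rfc4 and Gins1.

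Levels per exon length kept much the same order in both genotypes. The 7 genes that were highest in the mutants were the 7 highest in the controls, namely Pcna, Mcm3, Mcm4, Mcm5, Mcm6, Mcm7 and Rrm2. Across the 39 genes the log2 fold change correlated with exon length at a Spearman rho of 0.53, with genes of shorter exon length lower. With GC content it correlated at 0.24. These are descriptions across genes that share their libraries, with no test. After a correction for GC content and length 33 members were called lower, with a median of -0.58. Of the 24 members with no opposite-strand exons over theirs, 22 fell, as did 11 of the 15 members that have them.

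Replication genes outside the list were mostly lower too. Of 47 further genes of this process, all tested, 33 were called lower and none higher, leaving 14 uncalled. Their median log2 fold change was -0.50. Among all tested genes 21.7% were called lower and 24.1% higher. Tipin, which stabilises forks, had 45.6, 51.0 and 48.3 CPM in the mutants, against 78.2, 78.2 and 81.4 CPM in the controls (log2 fold change -0.72, SE 0.07, edgeR adjusted p = 0.000383). Slbp, the binding protein of replication histone mRNA, fell (log2 fold change -0.63, SE 0.07, edgeR adjusted p = 0.00058), as did Umps, an enzyme of pyrimidine synthesis (log2 fold change -0.59, SE 0.07, edgeR adjusted p = 0.00063). All 3 genes of RNase H2 and both genes of the chromatin assembly factor CAF-1 were called lower. The highest value of the 47 was that of Dna2, a nuclease of Okazaki fragments, at 0.26 (SE 0.12). It did not pass, and it was called higher when replicate 1 of both genotypes was left out. None of the 47 was called higher by DESeq2, by limma-voom or in edgeR at an unadjusted p below 0.05.

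Regulators of the G1 to S step were called in both directions. Of 29 genes 12 fell, 5 rose and 12 did not pass, with a median of -0.24, beside 21.7% called lower and 24.1% called higher among all tested genes. The share that rose was thus no larger than among all tested genes. Only 3 rose without mutant replicate 3, control replicate 2 or control replicate 3. Skp2, which marks cell cycle inhibitors for destruction, had 83.2, 73.9 and 75.4 CPM in the mutants, against 136, 133 and 119 CPM in the controls (log2 fold change -0.74, SE 0.08, edgeR adjusted p = 0.000572). Cdc25a, the phosphatase that activates Cdk2, fell (log2 fold change -0.58, SE 0.07, edgeR adjusted p = 0.000679), and so did the repressor E2f6 (log2 fold change -0.67, SE 0.08, edgeR adjusted p = 0.00104). Cdkn1a, which encodes the cyclin-dependent kinase inhibitor p21, had 152, 138.5 and 155 CPM in the mutants, against 36.8, 59.2 and 72.4 CPM in the controls (log2 fold change 1.40, SE 0.22, edgeR adjusted p = 0.00236). All 3 mutants were above all 3 controls, and the call held under every alternative tried. Rb1, the retinoblastoma protein that restrains E2F factors, had 32.8, 34.9 and 29.0 CPM in the mutants, against 18.5, 21.4 and 17.5 CPM in the controls (log2 fold change 0.75, SE 0.12, edgeR adjusted p = 0.00223). E2f7, a repressor of E2F targets, rose too (log2 fold change 0.46, SE 0.12, edgeR adjusted p = 0.0175), a call that was lost without control replicate 2, with the Y-linked covariate and against a 1.2-fold change.

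**Figure D4:**
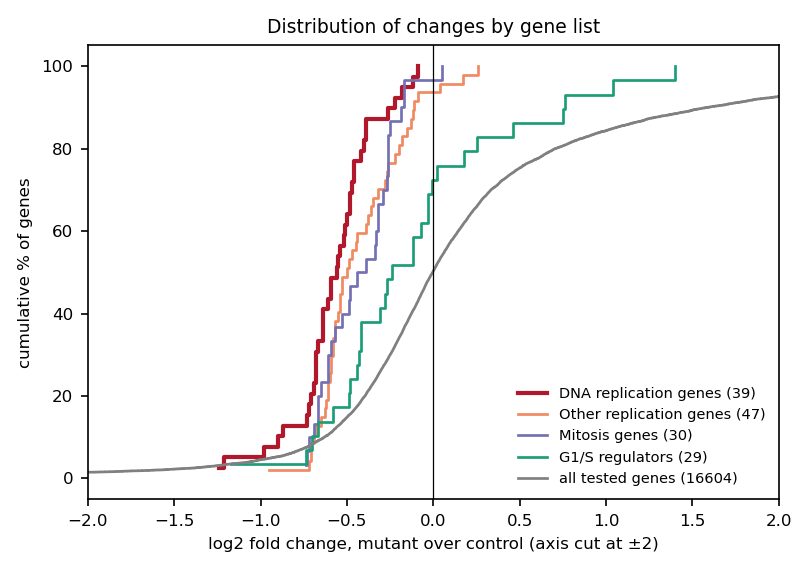
Curves give the cumulative percent of genes at or below each log2 fold change of mutant over control for the 39 replication genes, 3 further lists and all tested genes, with the axis cut at ±2. The curve of the 39 genes reaches 100% left of 0 and crosses its middle at -0.56, while the curve of all tested genes crosses near 0.

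Mitosis genes, which act later in the cycle, were lower as well. Of 30 genes 20 fell and none rose, beside 21.7% called lower and 24.1% called higher among all tested genes. The other 10 mitosis genes stayed uncalled, and the median of the 30 was -0.42. DESeq2 called 23 of them lower and limma-voom 22, and none was called higher by either or in edgeR at an unadjusted p below 0.05. Ccnb1, cyclin B1, had 92.0, 86.2 and 90.3 CPM in the mutants, against 151, 142 and 135 CPM in the controls (log2 fold change -0.67, SE 0.07, edgeR adjusted p = 0.000446), and Birc5, survivin, fell by 0.73 on the log2 scale (SE 0.09, edgeR adjusted p = 0.000755). The spindle checkpoint kinase Bub1b also fell (-0.74, SE 0.07). By library, the median over genes of log2 CPM relative to the control mean was -0.49, -0.68 and -0.58 in mutant replicates 1, 2 and 3 for the 39 replication genes, against 0.10, -0.06 and -0.06 in control replicates 1, 2 and 3. For the mitosis genes it was -0.22, -0.54 and -0.48 in the mutants, against 0.04, -0.01 and -0.03 in the controls. In both lists mutant replicate 1 was the mutant nearest to the controls, and no mutant reached the lowest control. Whether the 2 lists differ in their change was not tested.

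**Figure D5:**
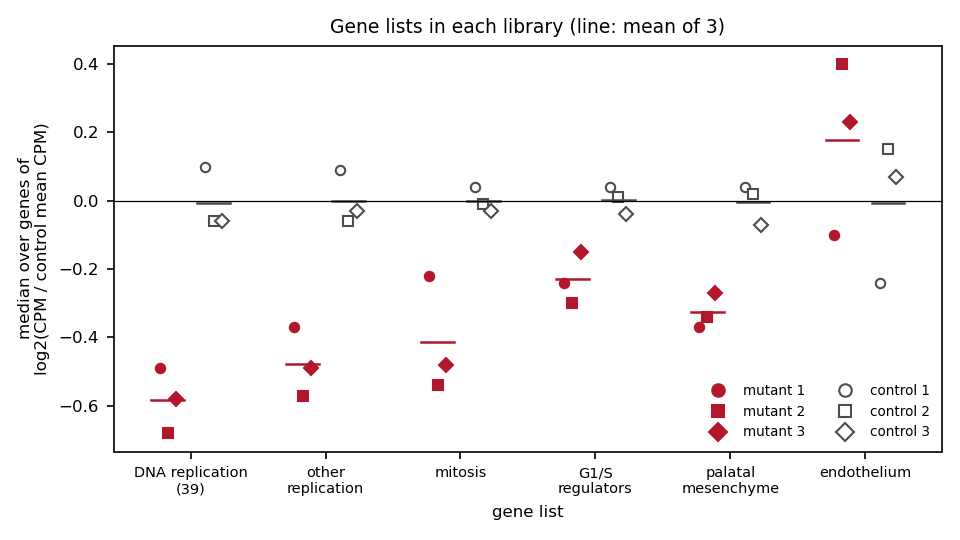
For each gene list the median over its genes of log2(CPM over control mean CPM) is plotted for every library, mutants (filled red) left of controls (open), with a line at the mean of 3. For the 39 replication genes the mutants lie at -0.68 to -0.49 and the controls at -0.06 to 0.10, and for endothelium the genotypes overlap.

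Unlike the replication genes, markers of 3 other cell types were higher in the mutants. Among all tested genes 24.1% were called higher. Markers of epithelium summed to 6143, 6707 and 7999 CPM in the mutants, against 1723, 1049 and 1749 CPM in the controls, with 11 of 11 higher. Multiciliated cell markers summed to 648, 863 and 796 CPM in the mutants, against 28.3, 90.7 and 144 CPM in the controls, with 7 of 7 higher. For macrophages the sums were 364, 451 and 474 CPM in the mutants, against 85.0, 152 and 137.8 CPM in the controls, with 10 of 10 higher. These 3 kinds of marker were thus all more abundant in every mutant than in any control.

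Markers of other cells were lower in sum. The counts of called genes below stand beside 21.7% called lower and 24.1% called higher among all tested genes. Erythroid markers summed to 40.5, 29.3 and 40.6 CPM in the mutants, against 645, 271 and 219 CPM in the controls, with 4 of 8 tested lower and 1 higher, and with Hba-a1 and Hba-a2 at 0 counts in all libraries. Osteoblast markers summed to 261, 396 and 474 CPM in the mutants, against 869, 3405 and 2959.7 CPM in the controls, with 8 of 8 tested lower (5 by limma-voom). Skeletal muscle markers were scarce, at 2.29, 2.39 and 2.74 CPM in the mutants, where Ckm had 0 counts, against 65.6, 5.55 and 20.7 CPM in the controls, with 6 of 7 tested lower (1 by limma-voom). Among 5 nerve markers 3 were lower, and their sums were 32.6, 51.9 and 42.6 CPM in the mutants, against 118, 98.3 and 60.6 CPM in the controls. Control replicate 1, the highest control in most replication genes, had the highest red cell, muscle and nerve sums and the lowest bone sum of the controls. With control replicate 1 left out 32 members were called lower.

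Palatal mesenchyme markers summed to 1695, 1639.8 and 1481 CPM in the mutants, against 2123, 2223 and 2055 CPM in the controls. Of these 9 markers 4 were called lower and none higher, beside 21.7% and 24.1% of all tested genes. For endothelium the sums were 450.4, 616 and 549 CPM in the mutants and 389, 514 and 487 CPM in the controls, which overlapped, and 0 of 6 genes were called by edgeR, by DESeq2, by limma-voom or at an unadjusted p below 0.05. Y-linked genes summed to 199, 244 and 208 CPM in the mutants, against 192, 36.2 and 87.5 CPM in the controls, and control replicate 1 lay nearest to the mutants. These genes follow the sex of the embryos, which the labels do not give. With the Y-linked level as a covariate 31 members were called lower, with a median of -0.64. The part of these marker differences, of sex and of depth in the lower replication transcripts was not tested beyond the fits given here. With every library thinned to 52668242 counts 33 members were called lower. The thinning treats each count as a separate read, which the even counts of mutant replicate 1 leave in doubt. Equal counts may therefore not be equal depth.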

How the data were processed

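RNA was sequenced from 3 mutant and 3 control libraries, and the authors deposited 1 table of raw counts per gene for each. The submitters' processing notes name HISAT2, StringTie, mm9 and mm10 without versions. For the counting tool, strand setting and annotation, nothing was given in the sources used here. Positions, exon lengths and GC content came from GENCODE M21 (98.5% of symbols matched) and promoters from RefSeq. Exon length joins all annotated exons of a gene over its transcripts. It can exceed the length of the RNA that was present, and levels per kb carry this limit.

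Counts were filtered with filterByExpr, scaled by TMM and tested with the quasi-likelihood test of edgeR 4.0.16 in R 4.3.3, mutant over control, with Benjamini-Hochberg adjustment over all 16604 tested genes. DESeq2 1.42.0 and limma 3.58.1 served as alternatives. The procedure was also run on simulated counts with far fewer changed genes than were called here. That run does not show how the procedure performs on these counts. Levels are CPM, and standard errors are the log2 fold change over the root of F. In each role the 3 genes with the smallest p and the gene nearest to no change were named with all values, and up to 3 per direction in the other lists. Members and lists were chosen with earlier results of these data known. Genotype was taken from the labels. Total counts ranged from 52668242 to 134813429.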

Additional observations from a re-analysis of the deposited data

How the results depend on the processing

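Over 19 alternatives the number of replication genes called lower ran from 26 (against a 1.2-fold change) to 35 (without replicate 1 of both genotypes), against 33 as reported, and none was called higher. Their median log2 fold change stayed between -0.65 and -0.49. Of the 33, 26 were called in all 19 alternatives and 7 (Orc1, Rfc2, Gins2, Mcm10, Mcm2, Pold1 and Lig1) were lost in at least 1. Pole ran from -0.21 to 0.02 when 1 library was left out, reversing without mutant replicate 3, and the cause was not tested. With the Y-linked covariate 3 G1/S regulators were called higher and 7 lower, and against a 1.2-fold change 2 were called higher and 6 lower, against 5 and 12 as reported. Leaving out 1 library at a time, 3 to 5 were called higher, and 7 were without replicate 1 of both genotypes. All genes called numbered 4874 with the Y-linked covariate and 4956 against a 1.2-fold change, against 7606 as reported. The covariate uses up a residual degree of freedom and the threshold sets a stricter test. The Y-linked level also went partly with genotype. Its sums were 199, 244 and 208 CPM in the mutants, against 192, 36.2 and 87.5 CPM in the controls. The fit with this covariate therefore cannot fully part it from genotype. Among the 47 other replication genes 0 to 1 were called higher when libraries were left out. With the replicate number as a block, 33 members were called lower, Ccnd1 among them (edgeR adjusted p = 0.00778) and Rfc2 not. Same-numbered libraries correlated at 0.081, 0.082 and 0.02 in their deviations, against -0.092 to 0.048 for libraries of unlike number. These values do not decide whether the numbers pair the libraries. The labels do not say what the numbers share, and the reported fit used no block.

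With 3 libraries a genotype and no record of embryos per library, small changes such as those of Pole, Cdt1 and Rfc5 could not be told from no change. Genotype goes with depth and with the makeup of the tissue, which cannot be told apart here.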
